A study of Mus musculus with 6 samples.

Results

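The genes described here act in the germline: they specify germ cells, silence transposons in them, and carry out meiosis. They were chosen by name, as a list of 39 genes, and their probes were found through the transcript accession printed beside each probe on the array. Of the 39 genes, 38 had at least 1 probe and 45 probes were found in all, among 37074 genes and genomic intervals with a probe on the array. Piwil4 was the gene without a probe. The cells were J1 mouse embryonic stem cells, which derive from 129S4/SvJae inner cell mass, adapted to gelatin and grown in serum replacement medium with 1000 U/mL LIF, a cytokine that sustains self-renewal. The treated group received 1 µM SC1 (pluripotin, a small molecule reported to inhibit the kinase ERK1 and RasGAP) for 6 h, and the control group received DMSO, its solvent. Each group had 3 samples, each measured on its own 1-colour array, and both groups carried the same medium and LIF. All samples are of this 1 line, and no sample is a germ cell or a gonad. The comparison asked which transcripts changed on exposure to SC1.

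Germ cells arise in the mouse epiblast when BMP signals switch on PRDM1, PRDM14 and TFAP2C. In female and male gonads they later enter meiosis, the division in which homologous chromosomes are paired by the synaptonemal complex, cut and recombined. Piwi proteins and their small RNAs (piRNAs) meanwhile silence transposons. Embryonic stem cells are known to transcribe a share of these genes at low levels, and to hold many others down through DNA methylation and a variant Polycomb complex that contains MGA, MAX, E2F6, PCGF6 and L3MBTL2.

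Signals are given below as a percent of the 75th percentile of processed signals on the same array, which lay at 532.2 to 539 with DMSO and at 443.3 to 493.3 with SC1. Between 63.2% and 65.6% of probes were well above background on each array, and no spot was saturated. All 10 markers of embryonic stem cells were above background on all 6 arrays; 2 rose and 4 fell, with the smallest adjusted p for Utf1 (-2.36), Tdgf1 (-1.39), Fgf4 (0.89) and Sox2 (-0.28). Of 11 markers of somatic gonad cells on the array, 6 were above background on all 6 arrays, and Amh, Sox9, Hsd3b1 and Fshr were above background on no array. Their summed signal, 4331% to 5434% with DMSO and 4355% to 5262% with SC1, was mostly that of Foxl2 (4399% ± 545 and 4443% ± 454, SD, n = 3). Among the 7 gonad markers tested, Star, Dhh and Inha fell by 0.47, 0.44 and 0.40 and Gata4 rose by 0.18. The labels do not say whether the replicates are separate cultures, and every p therefore covers the spread of these 6 samples alone, some or all of it possibly technical. In RNA from a whole culture, fewer cells that express a gene and less RNA per cell cannot be told apart.

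Most of the germline genes were detected in these stem cells. Of the 38 genes with a probe, 33 were well above background on all 6 arrays, and 35 were so on all 3 arrays of at least 1 group and were tested. Asz1 and Figla passed through the DMSO arrays alone, being above background on 2 and 1 of the 3 SC1 arrays. Tdrd1, a scaffold of the piRNA machinery, was above background on no array. Nobox, an oocyte transcription factor gene, was above background on 1 DMSO array only, and Spo11, which encodes the enzyme that cuts DNA to start meiotic recombination, on 1 SC1 array only. The Spo11 signal was 0.367%, 0.347% and 0.351% of the 75th percentile on the DMSO arrays and 2.62%, 0.443% and 0.41% on the SC1 arrays, so a single SC1 array stood apart.

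After 6 h of SC1, 3 of the 4 genes of early germ cells were higher and 8 of 16 meiosis genes were lower. Prdm1 rose most, 3.15-fold, and Kit, Nanos3, Tex101 and Sycp1 rose by smaller amounts. Rec8, Smc1b, Syce2, Dmc1, Tex15, Prdm9, Msh5, Mael, Tdrkh and the brighter probe of Msh4 fell, each by less than a factor of 2. The RNA-binding genes Dazl and Ddx4 and the other 18 genes tested did not pass the test. Of the 35 genes tested with limma, 5 were called higher and 10 lower at a Benjamini-Hochberg adjusted p under 0.05, in all 42.9%. The background was 38.3% of all 25439 genes and intervals tested (18.1% higher and 20.2% lower) and 44.9% of the 15492 genes named by RefSeq (21.2% higher and 23.7% lower), so the share of germline genes called was near the background. Their median log2 fold change was -0.074, against -0.0052 over all genes tested. For 18 of the 35 genes, or 51.4%, no SC1 array lay within the DMSO range (5 higher and 13 lower), against a background of 52.1% (24.5% higher and 27.6% lower). Scaled to spike-in probes, 2 of these genes were called higher and 8 lower, against 7.91% and 14.5% of all genes.

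The position on the slide differed between the groups: the first position number was 1 for all DMSO arrays and SC1 replicate 1, and 2 for SC1 replicates 2 and 3. With this number as a block 3 genes were called higher and 6 lower, against 10.6% and 11.2% of all genes and intervals tested. The calls of Mael, Tdrkh, Sycp1, Prdm9, Msh4 and Tex101 were lost (limma adjusted p of 0.209, 0.126, 0.164, 0.0763, 0.0531 and 0.0596). The fit kept all 6 arrays, but with this block each difference is that of SC1 replicate 1 against the 3 DMSO arrays. The direction of these genes stayed the same, which was fixed in advance because their groups did not overlap.

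**Figure D1:**
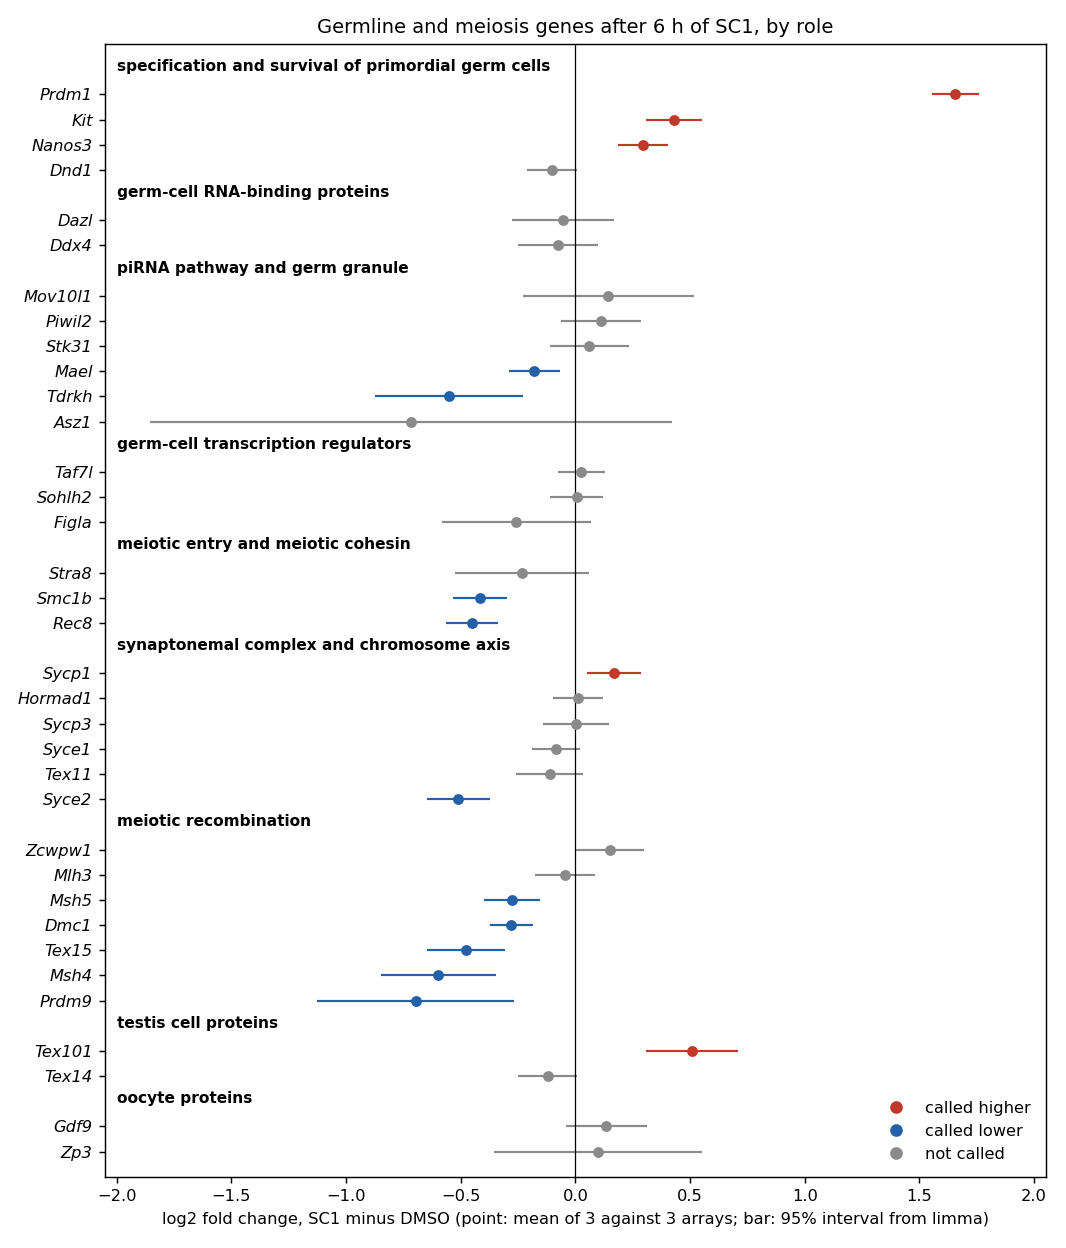
Log2 fold change (SC1 minus DMSO) of the 35 germline and meiosis genes tested, grouped by role, with the 95% interval from limma and 3 arrays per group. Red points were called higher (5 genes) and blue points lower (10 genes). Prdm1 stands apart at 1.66, and 5 of the 7 recombination genes are blue, Msh4 by its brighter probe alone.

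The genes that specify and protect primordial germ cells rose in 3 of 4 cases, beside a background of 18.1% higher (21.2% of genes named by RefSeq). Prdm1 encodes BLIMP1, a repressor of transcription that starts the germ cell programme and also acts in endoderm and in lymphocytes. Its signal was 39.6%, 40.6% and 38.8% of the 75th percentile on the DMSO arrays and 128%, 125% and 122% on the SC1 arrays. All SC1 arrays lay far above all DMSO arrays, and the log2 fold change was 1.66 (SE 0.042, n = 3 per group, adjusted p = 9.83e-06 with limma). Prdm1 was the 1 gene of the list called with a change of at least 2-fold, a size that 4.16% of all genes reached.

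Kit encodes the receptor through which germ cells migrate and survive, and it is also found on other stem cells. Its signal was 806%, 779% and 814% with DMSO and 1132%, 1034% and 1069% with SC1, without overlap. Kit rose by 0.43 on the log2 scale (SE 0.0499, adjusted p = 0.00135 with limma). Nanos3, an RNA-binding protein gene that keeps primordial germ cells alive, measured 322.5%, 322.2% and 325% with DMSO and 407%, 379% and 404% with SC1. The DMSO arrays were nearly level and the SC1 arrays higher and more spread, and Nanos3 rose by 0.30 (SE 0.0445, adjusted p = 0.00363 with limma). With spike-in scaling Kit was at 0.34 (adjusted p = 0.0949; range over all alternatives 3.32e-07 to 0.0949) and Nanos3 at 0.20 (adjusted p = 0.328; range 3.37e-05 to 0.328). Dnd1, a partner of NANOS proteins that shields messenger RNAs from microRNAs, measured 218%, 206% and 222% with DMSO. On the SC1 arrays it was 200.4%, 200.5% and 200.4%, below all DMSO arrays, but it did not pass (log2 fold change -0.10, adjusted p = 0.121 with limma).

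Other genes of primordial germ cells, a list chosen with earlier results of these data known, were called in 94.1% of cases, beside a background of 38.3%. Of the 17 genes, 10 rose (58.8%, background 18.1%), 6 fell (35.3%, background 20.2%) and 1 missed the threshold. The median log2 fold change was 0.25. Tfap2c and Prdm14, which act with Prdm1 in germ cell specification, rose by 1.37 (SE 0.0505, adjusted p = 2.44e-05 with limma) and 1.34 (SE 0.0603, adjusted p = 4.83e-05). Dmrt1, a regulator of germ cell pluripotency and of the testis, rose by 0.67, and Ddit4l had a log2 fold change of -1.19. Several of these genes, among them Tfap2c, Prdm14 and Zfp42, are also genes of naive embryonic stem cells.

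The signal of marker genes of other cell states changed in the same samples. The summed signal of 8 markers of primitive endoderm, a lineage in which Prdm1 can be expressed, was between 1296% and 1424% of the 75th percentile with DMSO and between 2131% and 2159% with SC1. Most of this sum was Lama1, which went from 1262% ± 63.0 to 2033% ± 21.5 (SD, n = 3). All 8 were above background on all 6 arrays; Pdgfra, Lama1, Foxa2 and Gata4 rose, by 1.07, 0.69, 0.66 and 0.18, and the other 4 did not pass, so that the median log2 fold change was 0.08. For 8 markers of two-cell-like cells the sum was 1477% to 1646% with DMSO and 2273% to 2435% with SC1; 6 of the 7 tested rose, led by Zscan4c, Zscan4f, Tcstv3 and Tcstv1 at 0.76, 0.72, 0.71 and 0.74, and Tdpoz4 was above background on no array. For 12 markers of embryonic fibroblasts the sum was 9978% to 10561% with DMSO and 9192% to 9565% with SC1, almost all of it Fn1 (10004% and 9179% in the mean), which did not pass. Of the 9 fibroblast markers tested 5 rose, 1 fell and 3 did not pass, with a median log2 fold change of 0.50. Thy1 was at -1.09, and Dcn, Col1a1 and Pdgfrb rose by 1.18, 0.81 and 0.69, from means of 3.47%, 20.8% and 17.04% of the 75th percentile with DMSO. Lum, Postn and Twist2 were above background on no array. Fn1 and Foxl2 were singled out after their values were seen. The part of these cell states in the changes of the germline genes was not tested.

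Dazl and Ddx4, the best known germ cell markers, encode an RNA-binding regulator of translation and an RNA helicase of the germ granule. Dazl was measured at 186%, 179% and 181% with DMSO and at 180.3%, 154% and 194% with SC1. The SC1 arrays lay on both sides of the DMSO arrays, and the log2 fold change was -0.05 with a 95% interval from -0.28 to 0.17. Ddx4 was measured at 208%, 237% and 232% with DMSO and at 201%, 214% and 226% with SC1, with groups that overlapped. Its log2 fold change was -0.07, with a 95% interval from -0.25 to 0.10.

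Among the genes of the piRNA pathway and the germ granule, 2 of 6 fell, none rose and 4 did not pass; the share called, 33.3%, was not above the background of 38.3%. Mael encodes Maelstrom, a germ granule protein needed for transposon silencing. It measured 667%, 644% and 638% with DMSO and 590.2%, 552% and 580.0% with SC1, without overlap. Mael fell by 0.18 on the log2 scale (SE 0.0455, adjusted p = 0.025 with limma), the smallest drop among those called. Tdrkh encodes a Tudor protein that anchors Piwi proteins at mitochondria. Its signal was low, at 7.58%, 7.57% and 8.86% with DMSO and 5.47%, 6.40% and 4.62% with SC1, and the groups did not overlap. Tdrkh fell by 0.55 (SE 0.132, adjusted p = 0.0203 with limma).

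Leaving out 1 array ended either call. Mael had an adjusted p from 0.0555 to 0.0745 without any of DMSO replicates 1, 2 and 3 or SC1 replicates 2 and 3. Tdrkh had an adjusted p of 0.0627 without DMSO replicate 3 and 0.0562 without SC1 replicate 1. Over all alternatives the adjusted p ran from 0.00283 to 0.225 for Mael and from 0.00303 to 0.327 for Tdrkh.

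Piwil2, a Piwi protein gene, measured 65.8%, 59.3% and 57.8% with DMSO and 66.7%, 61.8% and 69.4% with SC1. Mov10l1, a helicase gene that hands piRNA precursors to the pathway, measured 17.6%, 19.09% and 25.7% with DMSO and 23.2%, 24.3% and 20.6% with SC1. Stk31, which encodes a Tudor domain protein, measured 91.5%, 82.2% and 89.9% with DMSO and 98.4%, 85.8% and 91.0% with SC1. The groups overlapped for each of these genes, and their log2 fold changes of 0.11, 0.14 and 0.06 did not pass. Asz1, a mitochondrial scaffold gene of the pathway, was spread widely: 9.14%, 5.95% and 3.07% with DMSO and 3.24%, 2.29% and 5.06% with SC1. Its 95% interval ran from -1.85 to 0.42. Of 16 other piRNA and germ granule genes tested, 3 rose, 4 fell and 9 did not pass (43.8% called, median -0.05). Tdrd5, a Tudor protein gene of germ granules, fell by 0.98 (SE 0.0582, adjusted p = 0.000117 with limma). Mybl1, the transcription factor gene that drives piRNA precursors in the testis, was at -0.60, Pnldc1, the piRNA trimming enzyme gene, at -0.31, and Tdrd12 rose by 0.31.

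Transcription regulators of germ cells did not pass. Taf7l, a subunit gene of the general factor TFIID, measured 577%, 594.9% and 558% with DMSO and 582%, 593% and 586% with SC1. Sohlh2, a regulator of early oocytes and spermatogonia, measured 393%, 382% and 372% with DMSO and 400.1%, 374% and 378% with SC1. The ranges of the groups overlapped for both genes, and Taf7l and Sohlh2 had log2 fold changes of 0.03 and 0.01, with 95% intervals from -0.08 to 0.13 and from -0.11 to 0.12. Figla, a regulator of zona pellucida genes, was barely above background, at 2.62%, 2.68% and 2.17% with DMSO and 2.38%, 2.12% and 1.77% with SC1.

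Meiosis genes formed the largest group that fell. Across meiotic entry, cohesin, the chromosome axis and recombination, 16 of 17 genes were tested, of which 8 fell, 1 rose and 7 did not pass, with a median log2 fold change of -0.26. The share lower was 50.0%, with Msh4 counted by its brighter probe alone, beside the background of 20.2% (23.7% of genes named by RefSeq). The groups did not overlap for 10 of the 16 genes, or 62.5%, near the background of 52.1% (59.8% of genes named by RefSeq). Spo11 was the gene not tested.

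**Figure D2:**
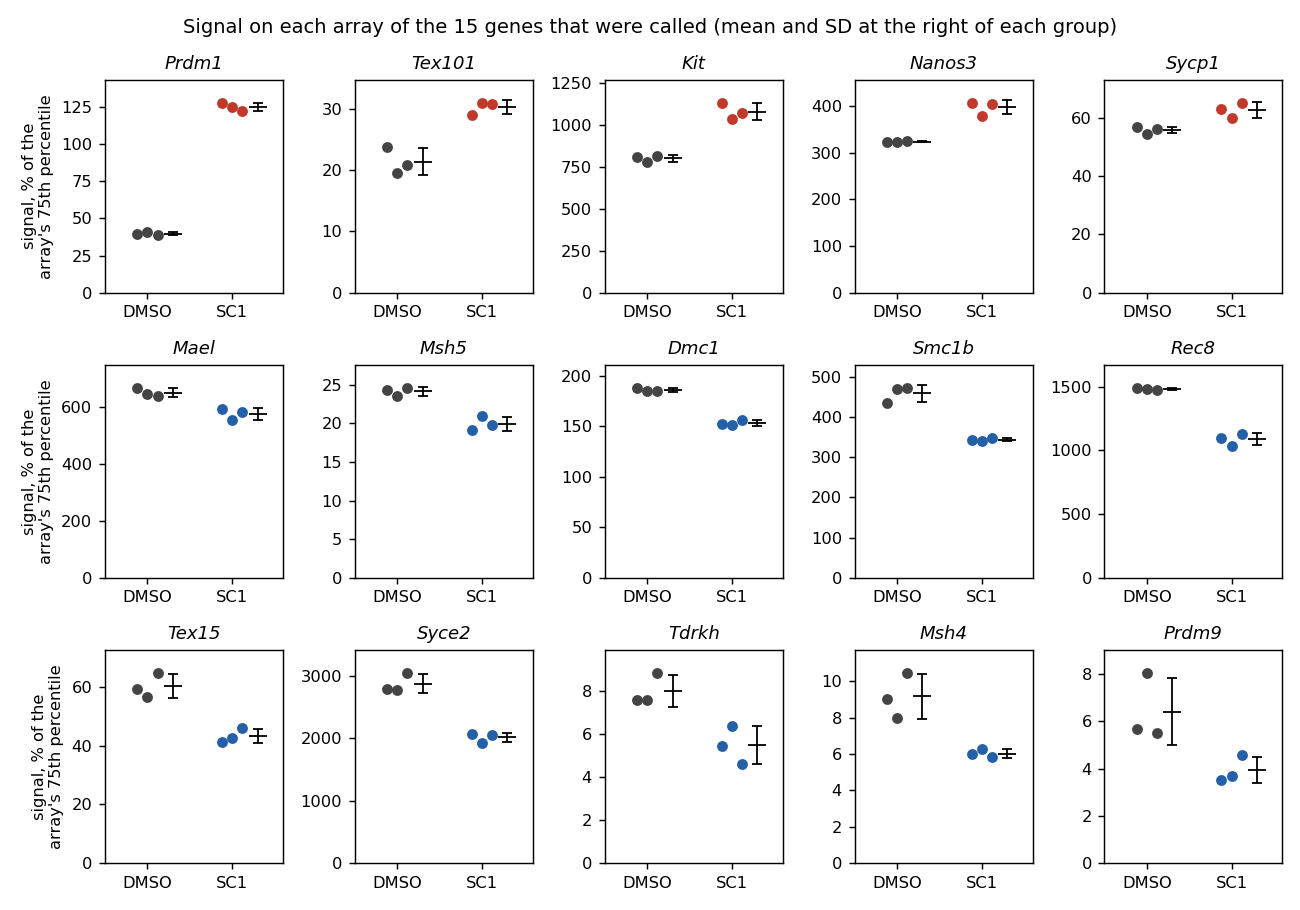
Signal on each array, as a percent of the array's 75th percentile, of the 15 genes that were called; points are arrays (3 DMSO in grey, 3 SC1 in colour), and the mean and SD stand to the right of each group. No DMSO point overlaps an SC1 point, and the separation runs from Prdm1 (38.8% to 40.6% against 122% to 128%) to Sycp1 (54.7% to 56.9% against 60.02% to 65.4%).

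The meiotic cohesins hold sister chromatids together and form the base of the chromosome axis. Rec8 encodes their kleisin subunit. Its signal was 1493%, 1481% and 1475% with DMSO and 1098%, 1035% and 1126% with SC1. The DMSO arrays were within a narrow range and all SC1 arrays were lower, and Rec8 fell by 0.45 (SE 0.0462, adjusted p = 0.000862 with limma). Smc1b, which encodes the SMC subunit of meiotic cohesin, measured 434%, 469.8% and 473% with DMSO and 343%, 339.9% and 348% with SC1. Smc1b fell by 0.42 (SE 0.0488, adjusted p = 0.00143 with limma), again without overlap. Stag3, the gene of a further meiotic cohesin subunit, taken from the list of other meiosis genes, was at -0.65 (SE 0.0421, adjusted p = 0.000157 with limma).

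Stra8, the gene that retinoic acid induces when germ cells enter meiosis, was spread across arrays. It measured 7157%, 6491% and 5770.1% with DMSO and 4955%, 6322% and 5264% with SC1. SC1 replicate 2 lay inside the DMSO range, and the difference of -0.23 (SE 0.119, adjusted p = 0.178 with limma) did not pass. With normexp background correction and 75th percentile scaling it was called at -0.25 (adjusted p = 0.0298; range over all alternatives 0.0298 to 0.442).

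Components of the synaptonemal complex did not move as 1 unit. Syce2, a gene of the central element that joins paired chromosomes, measured 2794%, 2775% and 3048% with DMSO and 2068%, 1930.4% and 2044% with SC1. The groups were well separated, and Syce2 fell by 0.51 (SE 0.0562, adjusted p = 0.0011 with limma). Syce1, another central element gene, measured 1158%, 1192% and 1167% with DMSO and 1136%, 1068% and 1111% with SC1. Its groups did not overlap either, but the log2 fold change was -0.09, with a 95% interval from -0.19 to 0.02, and did not pass.

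Sycp1, the gene of the transverse filament that bridges the paired axes, rose. It measured 56.9%, 54.7% and 56.3% with DMSO and 63.3%, 60.02% and 65.4% with SC1, and rose by 0.17 (SE 0.0482, adjusted p = 0.0373 with limma). This call was lost without any of DMSO replicates 1, 2 and 3 or SC1 replicates 1 and 3 (adjusted p from 0.0719 to 0.111), and with spike-in scaling the value was 0.08 (adjusted p = 0.749; range over all alternatives 0.00858 to 0.749). Sycp3, an axis protein gene, measured 270.2%, 258% and 257% with DMSO and 279%, 247% and 260.1% with SC1. The SC1 arrays lay on both sides of the DMSO arrays, and the log2 fold change was 0.0022, with a 95% interval from -0.14 to 0.14. Hormad1, which marks unpaired axes, measured 513%, 508% and 502% with DMSO and 528%, 489% and 518% with SC1. It was at 0.01 on its brightest probe and -0.12 on another, and neither passed. Tex11, an X-linked gene needed for pairing, measured 121%, 128% and 118% with DMSO and 114%, 107.1% and 119.8% with SC1 on its brightest probe. It was at -0.11 and -0.05 on its probes, neither of which passed.

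Of 7 recombination genes tested 5 were called lower, Msh4 among them by its brighter probe alone, and none higher, beside a background of 20.2% lower. Dmc1 encodes the recombinase that searches the homologous chromosome in meiosis. Its brightest probe measured 188%, 185.0% and 184.8% with DMSO and 152%, 151% and 156% with SC1. The 3 Dmc1 probes had log2 fold changes of -0.28 (SE 0.0381, adjusted p = 0.0025 with limma), -0.26 and -0.15, each without overlap. The last, dimmest probe did not pass when probes were tested singly (adjusted p = 0.106 with limma). With spike-in scaling the brightest probe was at -0.37 and not called (adjusted p = 0.0533 with limma, range over all alternatives 9.18e-05 to 0.0873).

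Tex15, needed for loading recombinases and for transposon silencing in germ cells, measured 59.5%, 56.9% and 65.0% with DMSO and 41.4%, 42.7% and 46.2% with SC1. Tex15 fell by 0.48 (SE 0.0697, adjusted p = 0.00328 with limma), and a second probe was above background on no array. Msh5, whose protein pairs with MSH4 to stabilise crossover intermediates, measured 24.3%, 23.5% and 24.6% with DMSO and 19.08%, 20.9% and 19.8% with SC1. Its log2 fold change was -0.28 (SE 0.0497, adjusted p = 0.0072 with limma), and -0.10 with normexp and 75th percentile scaling (adjusted p = 0.104; range over all alternatives 0.00365 to 0.107).

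Prdm9 and Msh4 rested on dim probes. Prdm9 encodes the histone methyltransferase that places recombination hotspots. It measured 5.69%, 8.06% and 5.50% with DMSO and 3.51%, 3.70% and 4.56% with SC1, without overlap but with DMSO replicate 2 far above the other DMSO arrays. A second probe was above background on 1 DMSO array only and was not tested. On the tested probe Prdm9 fell by 0.70 (SE 0.176, adjusted p = 0.0243 with limma). Without SC1 replicate 1 or SC1 replicate 2 its adjusted p was 0.074 or 0.0721, and with normexp and 75th percentile scaling the value was -0.08 (adjusted p = 0.24; range over all alternatives 0.00163 to 0.24).

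The probes of Msh4, which encodes the partner of MSH5, pointed in opposite directions. The brighter probe measured 9.04%, 7.99% and 10.5% with DMSO and 5.97%, 6.29% and 5.81% with SC1, or -0.60 on the log2 scale (SE 0.103, adjusted p = 0.00599 with limma). The dimmer probe measured 5.39%, 4.33% and 4.73% with DMSO and 6.40%, 6.42% and 6.38% with SC1, or 0.42 on the log2 scale (adjusted p = 0.0122 with limma on single probes). The groups did not overlap on either probe, so no direction is given for Msh4 as a gene, although it is counted among the 10 lower by its brighter probe. Averaged over both probes Msh4 was at -0.09 (adjusted p = 0.416; range over all alternatives 0.0021 to 0.416).

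The remaining recombination genes overlapped between groups. Zcwpw1, a reader of the PRDM9 mark, measured 60.7%, 59.5% and 64.8% with DMSO and 68.5%, 64.6% and 72.3% with SC1. Mlh3, a crossover nuclease gene, measured 83.2%, 85.1% and 92.5% with DMSO and 86.1%, 83.7% and 82.6% with SC1. Their log2 fold changes of 0.15 (adjusted p = 0.102 with limma) and -0.05 (adjusted p = 0.551) did not pass.

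Other meiosis genes moved in both directions. Of 29 tested, 6 rose (20.7%, background 18.1%), 9 fell (31.0%, background 20.2%) and 14 did not pass. In both directions together 51.7% were called, beside the background of 38.3%, with a median of -0.06. Meiob, which encodes a protein on single-stranded DNA of meiotic breaks, rose by 0.70 (SE 0.0445, adjusted p = 0.000147 with limma), and Brdt, a bromodomain protein gene of spermatocytes, by 0.72 (SE 0.0579, adjusted p = 0.000335). Helb, a DNA helicase gene, rose by 0.50.

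Of the genes of later germ cells, 1 of 4 rose, beside a background of 18.1% higher (21.2% of genes named by RefSeq). Tex101, which encodes a surface protein of germ cells and sperm, measured 23.8%, 19.5% and 20.7% with DMSO and 29.0%, 31.0% and 30.8% with SC1. Tex101 rose by 0.51 (SE 0.0822, adjusted p = 0.00479 with limma). With the first slide position number as a block it was at 0.45 and not called (adjusted p = 0.0596; range over all alternatives 0.000117 to 0.0965). Tex14, which keeps the bridges between dividing germ cells open, was lower on all SC1 arrays (577% to 621%) than on the DMSO arrays (630.2% to 684%), but its log2 fold change of -0.12 did not pass (adjusted p = 0.12 with limma). Zp3, a gene of the oocyte coat, had 1 DMSO array at 125% and the other two at 199% and 197%, with SC1 between 180.4% and 184%, and did not pass. Gdf9, an oocyte growth factor gene, measured 28.2%, 26.4% and 25.7% with DMSO and 27.0%, 29.7% and 31.6% with SC1, with overlap, and did not pass. Of 7 other oocyte genes tested, 3 rose (42.9%, background 18.1%) and 3 fell (42.9%, background 20.2%). Nlrp5 and Padi6 rose by 0.36 and 0.24, and Khdc3 and Tle6 had log2 fold changes of -0.34 and -0.40.

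**Figure D3:**
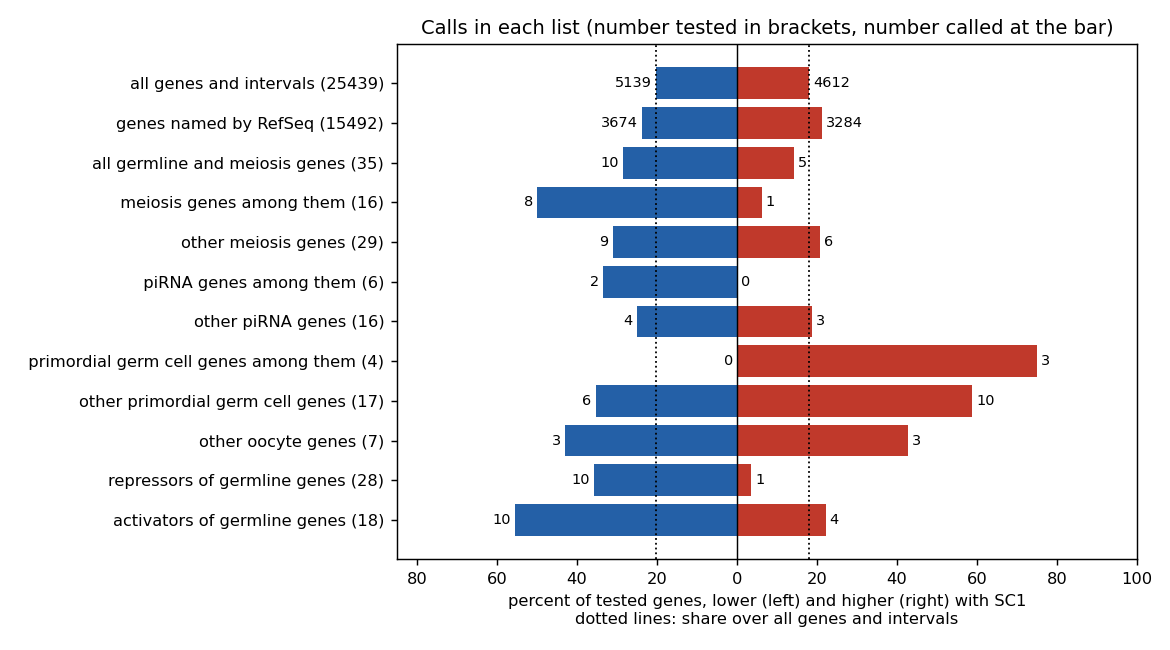
Percent of the tested genes of each list called lower (blue, to the left) or higher (red, to the right) with SC1, with the number tested in brackets and the number called at each bar; dotted lines mark the share over all 25439 genes and intervals. The bar of the 16 meiosis genes reaches 50.0% on the lower side, and that of all 35 germline genes 28.6%. Both count Msh4 as lower by its brighter probe alone.

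Regulators known to act on germline genes were called in both directions, more often lower than higher. Of the variant Polycomb complex, Mga was at 0.09, Max at 0.08, L3mbtl2 at -0.05, Pcgf6 at -0.13 and E2f6 at -0.11, and none of these 5 passed. Their 95% intervals lay between -0.34 and 0.20. Other Polycomb genes of the repressor list were called, as given below. Of 28 repressors tested, 10 fell (35.7%, background 20.2%) and 17 did not pass. The 1 that rose was Rybp, by 0.28 (3.57% higher, background 18.1%). In both directions together 39.3% were called, near the background of 38.3%. Zfp57, a zinc finger gene that protects DNA methylation at imprinted regions, was at -1.84 (SE 0.0707, adjusted p = 2.85e-05 with limma), Dnmt3b, a de novo DNA methyltransferase gene, at -0.77 and Ehmt2, which encodes the histone methyltransferase G9a, at -0.42. Yaf2, the gene of a Polycomb subunit, was at -0.48, and Rnf2 and Cbx3 were at -0.23 and -0.18, each called lower. The maintenance methylation genes Dnmt1 and Uhrf1 were at -0.14 and -0.26, both called lower. Of 18 genes listed as activators, 4 rose (22.2%, background 18.1%) and 10 fell (55.6%, background 20.2%). In both directions together 77.8% were called, beside the background of 38.3%. The list includes Stra8 and shares Tfap2c, Prdm14 and Dmrt1 with that of primordial germ cells. It also holds Cyp26a1 (-0.86, called lower) and Cyp26b1 (not called), genes of enzymes that break down retinoic acid and are not themselves activators. Tet1, whose enzyme removes DNA methylation at meiotic promoters, was at -0.91 (SE 0.0578, adjusted p = 0.000147 with limma), Dppa2 at -2.06, Dppa4 at -1.52 and Myc at -4.55, while Tfap2c and Prdm14 rose as given above.

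The promoters of several of these genes hold the letters of E-box and E2F motifs, which MGA with MAX and E2F6 can bind. Sequences from RefSeq (build GRCm38.p6) were found for 33 of the 39 genes, and the 250 bases before each annotated start were searched. The E-box was searched as CACGTG, which reads the same on both strands, and the E2F motif as GCGGGA or its reverse TCCCGC; the motifs do not overlap. The motifs were chosen after the changes of the genes were known. Of the 33 genes 11 held an E-box, or 33.3%, against 6.86% of all 27025 genes with an entry and 9.48% of the genes tested here. E2F letters were held by 12 of the 33, or 36.4%, against 18.8% of all genes and 31.0% of the genes tested here. The median number of CpG pairs was 15 for these 33 genes, with the highest count of a gene's windows taken. Over all promoter entries, each taken singly, it was 6, so these medians are not like for like.

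E2F letters stood before 7 of the 9 genes called lower that have an entry (Dmc1, Mael, Msh5, Prdm9, Rec8, Smc1b and Syce2), before 4 of 16 that were not called, and before Kit among the 5 called higher. Over all tested genes with an entry the shares were 35.3% of those called lower, 29.4% of those not called and 30.5% of those called higher. E-box letters stood before 7 of the 16 not called, 2 of the 9 lower and 1 of the 5 higher. These are counts of letters in a window, with no test, and they show no binding. Windows of 4 meiosis genes that fell are shown first, each with E2F letters and no E-box: Rec8 (chr14:55617916-55618165, plus strand), Smc1b (chr15:85131958-85132207, minus strand), Dmc1 (chr15:79605110-79605359, minus strand) and Msh5 (chr17:35046623-35046872, minus strand). Windows of 3 chromosome axis and synaptonemal genes with an E-box follow: Sycp3 (chr10:88459337-88459586, plus strand) and Hormad1 (chr3:95559427-95559676, plus strand), which did not pass, and Sycp1 (chr3:102936101-102936350, minus strand), which rose. Each is written along the gene's strand, 5′ to 3′, ending 1 base before the start, with motif letters in capitals.
Rec8: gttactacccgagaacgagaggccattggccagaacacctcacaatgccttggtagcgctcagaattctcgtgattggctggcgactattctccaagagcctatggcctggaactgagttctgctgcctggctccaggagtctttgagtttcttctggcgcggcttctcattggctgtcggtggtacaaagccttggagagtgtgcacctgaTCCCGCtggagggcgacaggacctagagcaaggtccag
Smc1b: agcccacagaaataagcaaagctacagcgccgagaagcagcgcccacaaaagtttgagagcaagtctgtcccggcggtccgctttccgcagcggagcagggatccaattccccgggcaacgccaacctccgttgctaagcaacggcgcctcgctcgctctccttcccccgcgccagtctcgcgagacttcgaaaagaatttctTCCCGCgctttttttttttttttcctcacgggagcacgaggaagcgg
Dmc1: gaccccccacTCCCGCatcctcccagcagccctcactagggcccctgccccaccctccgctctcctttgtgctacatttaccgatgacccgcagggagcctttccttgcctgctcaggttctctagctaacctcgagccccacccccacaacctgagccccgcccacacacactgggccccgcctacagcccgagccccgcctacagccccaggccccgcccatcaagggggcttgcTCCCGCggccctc
Msh5: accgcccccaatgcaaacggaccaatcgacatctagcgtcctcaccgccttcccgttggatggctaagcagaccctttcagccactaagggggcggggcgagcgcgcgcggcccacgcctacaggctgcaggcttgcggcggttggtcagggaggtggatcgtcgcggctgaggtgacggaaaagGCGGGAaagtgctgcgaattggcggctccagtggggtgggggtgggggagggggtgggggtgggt
Sycp3: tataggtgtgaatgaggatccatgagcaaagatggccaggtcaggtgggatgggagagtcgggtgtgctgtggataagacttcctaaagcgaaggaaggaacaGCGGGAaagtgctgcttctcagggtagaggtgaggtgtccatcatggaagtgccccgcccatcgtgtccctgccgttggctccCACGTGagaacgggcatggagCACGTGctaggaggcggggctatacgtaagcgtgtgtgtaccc
Hormad1: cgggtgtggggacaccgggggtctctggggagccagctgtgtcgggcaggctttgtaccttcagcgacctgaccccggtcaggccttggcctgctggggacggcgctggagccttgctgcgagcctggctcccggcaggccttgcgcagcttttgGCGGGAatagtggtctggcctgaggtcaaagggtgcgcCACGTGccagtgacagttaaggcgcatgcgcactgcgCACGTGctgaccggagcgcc
Sycp1: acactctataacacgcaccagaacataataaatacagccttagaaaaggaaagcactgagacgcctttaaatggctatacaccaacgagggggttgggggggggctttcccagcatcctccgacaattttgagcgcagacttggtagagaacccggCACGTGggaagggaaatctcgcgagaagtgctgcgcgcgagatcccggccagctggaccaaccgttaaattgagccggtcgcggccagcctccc

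The E2F letters begin 38 bases before the start in Rec8, 47 in Smc1b, 65 in Msh5, and 240 and 13 in Dmc1. In Sycp3 the E-boxes begin 64 and 43 bases before the start, and in Hormad1 57 and 20, with E2F letters farther out at 147 and 95. Sycp1 holds 1 E-box at 94 bases and no E2F letters.

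**Figure D4:**
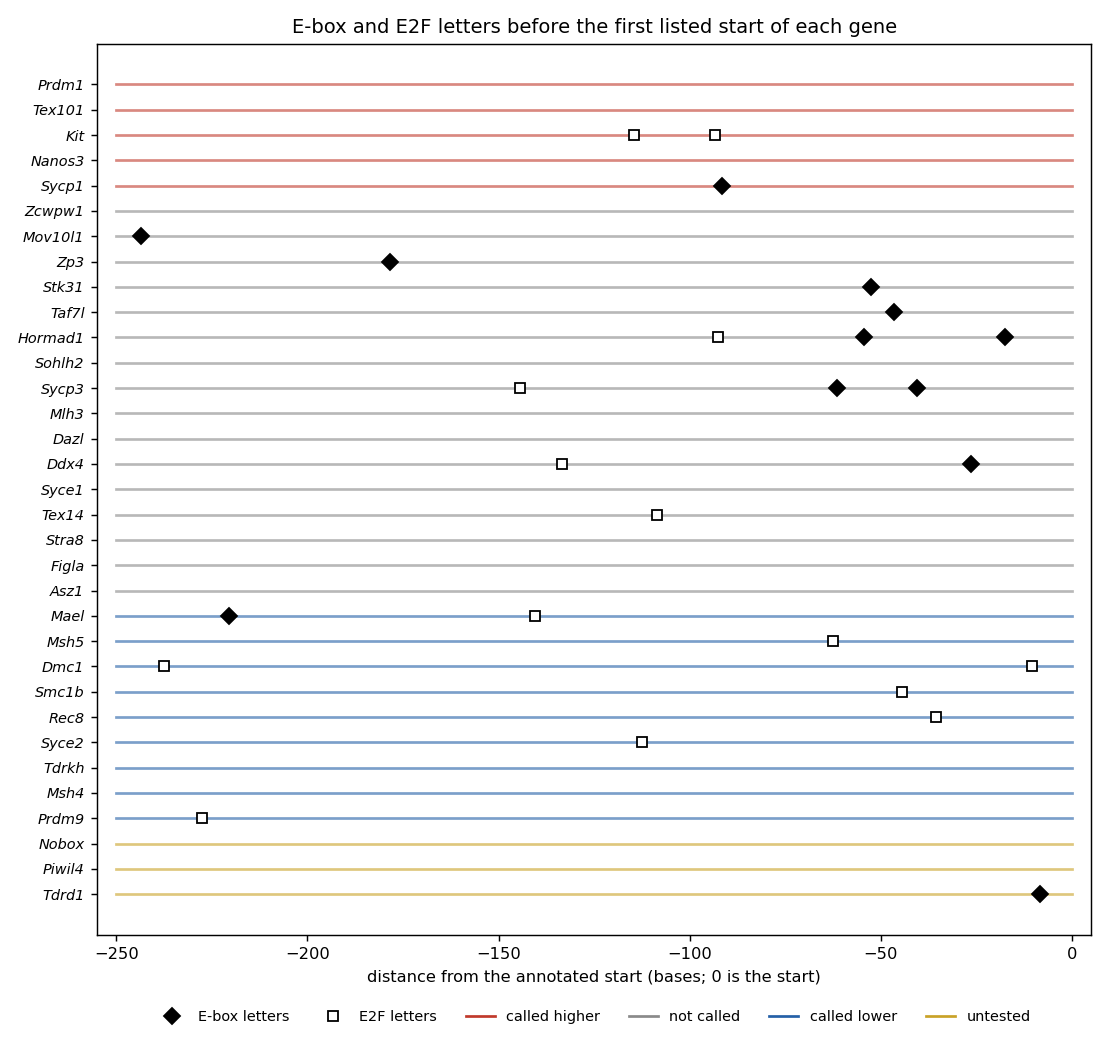
Positions of E-box letters (black diamonds) and E2F letters (white squares) in the 250 bases before the first listed start of the 33 genes with a promoter entry, in bases from the start; line colour gives the call. Among the 9 genes called lower (blue) 7 carry an E2F square; E-box diamonds lie mostly on the grey lines of genes that were not called, and the E-box of Syce2 lies before another of its starts.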

How the data were processed

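Total RNA of 3 SC1 and 3 DMSO samples was measured on 6 arrays of 62976 spots, all on 1 slide in 1 scan. Per the labels, RNA was amplified and labelled with Cy3; per the submitters' processing notes, spots were read with Agilent Feature Extraction 10.7. The deposited files give an intensity per spot, corrected by the authors' software for background and spatial trend, the raw median intensities, and per the file headers 0 or 1 flags for spots above background, outlying or saturated. The authors' deposited log2 matrix has the same quantiles in all columns; its method is not given in the sources used here.

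Control spots and 137 to 201 outlier spots per array were left out. Each array's 75th percentile was taken off its log2 signals after spots of a probe had been averaged. A RefSeq table (GRCm38.p6) named 27235 of 55681 probes by accession. Probes had to be well above background throughout 1 group or both (3 arrays each), and the brightest probe stood for a gene. R 4.3.3 and limma 3.58.1 gave the test of SC1 against DMSO, by lmFit with eBayes. Tests were two-sided, and p-values were adjusted by Benjamini-Hochberg over all 25439 genes and intervals; "called" means an adjusted p under 0.05. The genes and lists were chosen with earlier results of these data known. All listed genes are named. From each other list, up to 4 with the smallest adjusted p among those called are named, and 11 regulators of germline genes whether called or not. Rnf2 and Cbx3 were added after their values were seen. On simulated normalized values of 25416 genes the fit and the adjustment of p-values were tested, without the scaling, the filter or the choice of probes. Of 50 genes changed by each fold, 11 were recovered at 1.25-fold, 23 at 1.5-fold, 42 at 2-fold and 49 at 4-fold, and 11 unchanged genes were called. Far fewer genes were changed there than the 38.3% called in the data, which makes the adjusted threshold stricter. These shares therefore do not give the recovery in the data. Alternatives were other scalings and background corrections, the deposited log2 matrix, other filters, probe rules and variance models, blocks, thresholds and leaving out arrays; fitting only the arrays with first slide position number 1 was added after the data were seen.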

Additional observations from a re-analysis of the deposited data

How the results depend on the processing

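The number of arrays, 3 per group, limits the precision. With quantile normalization, the median of detected probes, the deposited log2 matrix and array weights, the counts stayed at 5 higher and 10 lower, and each of the 15 called genes kept its direction under every alternative run, Msh4 by its brighter probe or the mean of its probes. With the first slide position number as a block, or with arrays left out, that direction was fixed in advance, since the groups did not overlap for these genes. Leaving out 1 array gave 4 to 5 higher, 8 to 9 lower and 7783 to 8446 genes called in all. With spike-in scaling 2 of these genes were higher, and 5689 genes were called in all against 9751; the cause was not tested. With the first slide position number as a block 3 were higher, 6 lower and 5545 called in all, and within the 4 arrays of position number 1 (3 DMSO and 1 SC1, with the lone array assumed to vary like the others) 3, 6 and 4898. Prdm1, Kit, Nanos3, Smc1b, Rec8, Syce2, Dmc1, Tex15 and Msh5 were the 9 genes called with the first position number as a block. With the second position number as a block, which leaves 1 residual degree of freedom, the counts were 1, 3 and 3324. An adjusted p under 0.01 left 5792 genes called in all, and a change of at least 1.5-fold left 1 higher, 2 lower and 2874 in all, which follows from the stricter threshold. Among all genes called, 47.3% were higher, against 35.3% with spike-in scaling and 57.9% with normexp and 75th percentile scaling. The correlation of deviations of same-numbered samples was -0.013, -0.036 and -0.015, within the range of differently numbered samples (-0.060 to 0.079). No shared effect of the number was seen, but with 3 samples per group this cannot tell whether the numbers pair the samples. With the replicate block 4 were higher, 8 lower and 7910 called in all: Mael, Tdrkh, Sycp1 and Prdm9 were not called (adjusted p from 0.0564 to 0.0659) and Figla was (-0.26, adjusted p = 0.0464), a gene that passed the filter only through the DMSO arrays, where it is higher, so this call is not read as a change.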
